A study of Homo sapiens with 72 samples.

Results

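NALM6 is an established human cell line from precursor B cell acute lymphoblastic leukaemia. H3K27me3 was profiled in it by CUT&Tag, which directs a transposase to antibody-bound chromatin after which DNA cut near the mark is amplified and sequenced. The comparison set NALM6 cells given 1 nM bryostatin overnight (the study's figure legend states 24 h) against NALM6 cells with no treatment, and asked how far the repressive mark moved with the drug. It used replicates 2 and 3 of each group, which makes 4 of the 72 samples of the series and 4 of its 54 libraries with peaks. Both groups were the same unmodified line in the same serum-supplemented medium, without any transgene. Replicate 1 of both groups had its signal on another scale and was left out of the comparison. The labels do not say whether the replicates were separate cultures, so the p-values measure only the spread between these libraries, which may be technical.

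H3K27me3 is laid down by Polycomb repressive complex 2, whose catalytic subunit is EZH2 or EZH1. It spreads over silent developmental genes, often at CpG islands, where Polycomb repressive complex 1 binds it through its CBX subunits. The KDM6 demethylases remove it. H3K4me3 marks active promoters and H3K4me2 marks promoters and enhancers. Promoters that carry H3K27me3 and H3K4me3 together are called bivalent, although a bulk assay cannot tell one allele or cell with both marks from a mixture. Bryostatin binds the diacylglycerol site of protein kinase C, a kinase family that signals through the MAP kinase and NF-kB pathways to immediate early genes such as FOS. CD22, a surface antigen of the precursor B cell, is a target of immunotherapy in this disease.

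The promoters below are examples of groups described in the rest of the text. They are RefSeq sequences of GRCh38.p14, each 250 bases before to 50 bases after a gene's start, read 5′ to 3′ on the gene's strand, with CG dinucleotides in capitals. DLX1 (chr2:172085257-172085556, plus strand), a homeobox gene, stands for promoters called in all 4 libraries. SIM1 (chr6:100464872-100465171, minus strand), a developmental transcription factor, is an example of those called only after bryostatin. Its 25 CG dinucleotides are above the median of 11 for that class. FOS (chr14:75278578-75278877, plus strand), PDGFA (chr7:520177-520476, minus strand) and SPHK1 (chr17:76382954-76383253, plus strand) had fewer bases inside H3K27me3 peaks in the bryostatin libraries and were chosen after their values were seen. CD22 (chr19:35328937-35329236, plus strand) carried no H3K27me3 peak.
DLX1: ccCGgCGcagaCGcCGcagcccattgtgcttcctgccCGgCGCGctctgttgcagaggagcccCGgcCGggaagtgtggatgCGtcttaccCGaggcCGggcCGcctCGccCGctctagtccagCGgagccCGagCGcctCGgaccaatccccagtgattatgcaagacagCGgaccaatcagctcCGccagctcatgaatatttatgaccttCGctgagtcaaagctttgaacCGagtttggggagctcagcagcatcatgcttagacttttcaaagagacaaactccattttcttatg
SIM1: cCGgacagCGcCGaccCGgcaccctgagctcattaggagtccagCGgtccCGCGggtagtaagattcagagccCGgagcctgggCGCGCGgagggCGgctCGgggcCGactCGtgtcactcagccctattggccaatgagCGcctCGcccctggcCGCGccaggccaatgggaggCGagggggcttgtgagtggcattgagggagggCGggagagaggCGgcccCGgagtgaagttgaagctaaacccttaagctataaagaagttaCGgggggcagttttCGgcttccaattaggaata
FOS: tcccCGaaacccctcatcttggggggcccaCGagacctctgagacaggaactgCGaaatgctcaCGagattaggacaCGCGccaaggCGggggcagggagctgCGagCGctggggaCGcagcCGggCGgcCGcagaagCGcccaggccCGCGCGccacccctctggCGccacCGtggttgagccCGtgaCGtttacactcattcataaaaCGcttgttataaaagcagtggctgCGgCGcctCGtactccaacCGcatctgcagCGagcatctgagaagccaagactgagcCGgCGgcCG
PDGFA: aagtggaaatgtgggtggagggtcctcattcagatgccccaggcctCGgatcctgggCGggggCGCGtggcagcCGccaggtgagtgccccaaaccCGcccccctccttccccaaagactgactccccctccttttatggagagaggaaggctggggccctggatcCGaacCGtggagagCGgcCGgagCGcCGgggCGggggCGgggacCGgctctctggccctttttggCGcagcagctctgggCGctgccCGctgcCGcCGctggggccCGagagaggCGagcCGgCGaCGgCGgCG
SPHK1: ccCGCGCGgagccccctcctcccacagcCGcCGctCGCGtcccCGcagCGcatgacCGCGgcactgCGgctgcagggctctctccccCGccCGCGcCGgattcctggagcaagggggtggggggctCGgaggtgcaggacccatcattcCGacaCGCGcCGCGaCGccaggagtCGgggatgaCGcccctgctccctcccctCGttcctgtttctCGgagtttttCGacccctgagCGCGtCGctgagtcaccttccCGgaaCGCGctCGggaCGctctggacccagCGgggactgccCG
CD22: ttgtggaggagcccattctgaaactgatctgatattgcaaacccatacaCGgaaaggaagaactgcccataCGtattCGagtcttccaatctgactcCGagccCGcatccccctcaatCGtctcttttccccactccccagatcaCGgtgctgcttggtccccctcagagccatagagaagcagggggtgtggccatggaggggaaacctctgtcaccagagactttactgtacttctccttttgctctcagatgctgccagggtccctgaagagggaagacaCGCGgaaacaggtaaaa

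The 4 libraries differed in depth and in the shape of their peaks. The mapped reads in M (mega), read from the step between neighbouring RPKM values, were 19.1 M in untreated replicate 2, 19.2 M in untreated replicate 3, 28.6 M in bryostatin replicate 2 and 6.86 M in bryostatin replicate 3. Their peaks on chromosomes 1 to 22 and X numbered 21273, 7209, 34994 and 78585 in the same order, with median lengths of 2330, 3680, 3100 and 380 bp. Bryostatin replicate 3 stood apart, as the shallowest library with the most and the shortest peaks. The smallest total signal of a listed peak, the sum of RPKM over its bases, was 56349 and 127929 in the untreated libraries and 44757 and 15018 in the bryostatin libraries. A region without a peak in untreated replicate 3 could therefore hold a signal that other libraries list, and a missing peak was not read as absence of the mark.

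The label of the line was checked against defining markers. All 12 precursor B cell markers examined, among them PAX5 and RAG1, had an H3K4me3 peak at a start in both untreated libraries, 7 of 12 had one in both bryostatin libraries, and 0 of 12 had H3K27me3 in any of the 4. The H3K4me3 library of bryostatin replicate 3 overlapped 55 of the 5839 regions with H3K27me3 in all 4. The other H3K4me3 libraries overlapped 316 to 424 of them, so the 7 of 12 was not read as loss of H3K4me3. Of 9 T and NK cell markers, 1 (GATA3) had H3K4me3 in both untreated libraries and 6 had H3K27me3 in at least 1 library, 1 of them in all 4. Of 8 myeloid markers, 0 had H3K4me3 and 5 had H3K27me3 in at least 1 library, including CSF1R, CSF3R and MPO, 2 of them in all 4. Over all protein-coding genes, 71.8% had H3K27me3 in none of the 4 and 9.36% in all 4.

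H3K27me3 covered more gene starts in the bryostatin libraries than in the untreated ones, in a comparison that 2 libraries a group cannot bring below an exact two-sided permutation p of 0.333. A peak within 1 kb of a start was found for 3034 and 1951 of 19970 protein-coding genes in the untreated libraries, and for 3900 and 4853 in the bryostatin libraries. The groups did not overlap, with 12.5% ± 3.83 against 21.9% ± 3.37 of genes (mean and SD, n = 2 each, exact permutation p = 0.333). The covered length was 71.6 and 35.5 Mb in the untreated libraries and 157 and 39.7 Mb in the bryostatin libraries, where the groups overlapped (exact permutation p = 0.667). The mean signal over called bases was 75.4 and 106 RPKM untreated and 46.6 and 102 RPKM with bryostatin, which overlapped too (exact permutation p = 0.667). The sizes depended on the bryostatin library read. Bryostatin replicate 2 had the largest covered length and the lowest mean signal, and without it the difference in covered length turned from 44.9 to −13.9 Mb. Without bryostatin replicate 3 the bryostatin library exceeded the untreated mean by 20753 peaks, 104 Mb and 7.05 percentage points of genes. When each library was cut to its 7209 highest peaks, the difference in genes turned to −1.22 percentage points. Bryostatin replicate 2, at 10.7%, was then still above both untreated libraries, at 9.98% and 9.77%. Bryostatin replicate 3 was at 6.58%, so the groups overlapped.

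The untreated peaks lay mostly inside those of bryostatin replicate 2 and less inside those of bryostatin replicate 3. Of the bases called in untreated replicate 3, 98.1% lay inside peaks of bryostatin replicate 2, and of those called in untreated replicate 2, 94.8% did. Inside peaks of bryostatin replicate 3 lay 54.6% and 38.3% of them. In the other direction, 43.2% of the bases of bryostatin replicate 2 lay inside untreated replicate 2. Of the bases of bryostatin replicate 3, 81.6% lay inside bryostatin replicate 2 and 69.2% inside untreated replicate 2.

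Merging the peaks gave 55478 regions. Of these, 5839 had a peak in all 4 libraries, with a median length of 8100 bp and 60.2 Mb in all. A further 6408 regions, a background of 11.6% of the merged regions, had a peak in both bryostatin libraries and in no untreated library and are called gained. No region had a peak in both untreated and in no bryostatin library (0%), which is the class called lost. The gained regions had a median length of 2730 bp and 9.004% of them held a protein-coding start, against 39.0% of the regions called in all 4. The largest class, 19895 regions with a median of 310 bp, was called in bryostatin replicate 3 alone, and 12211 regions were called in bryostatin replicate 2 alone.

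**Figure D1:**
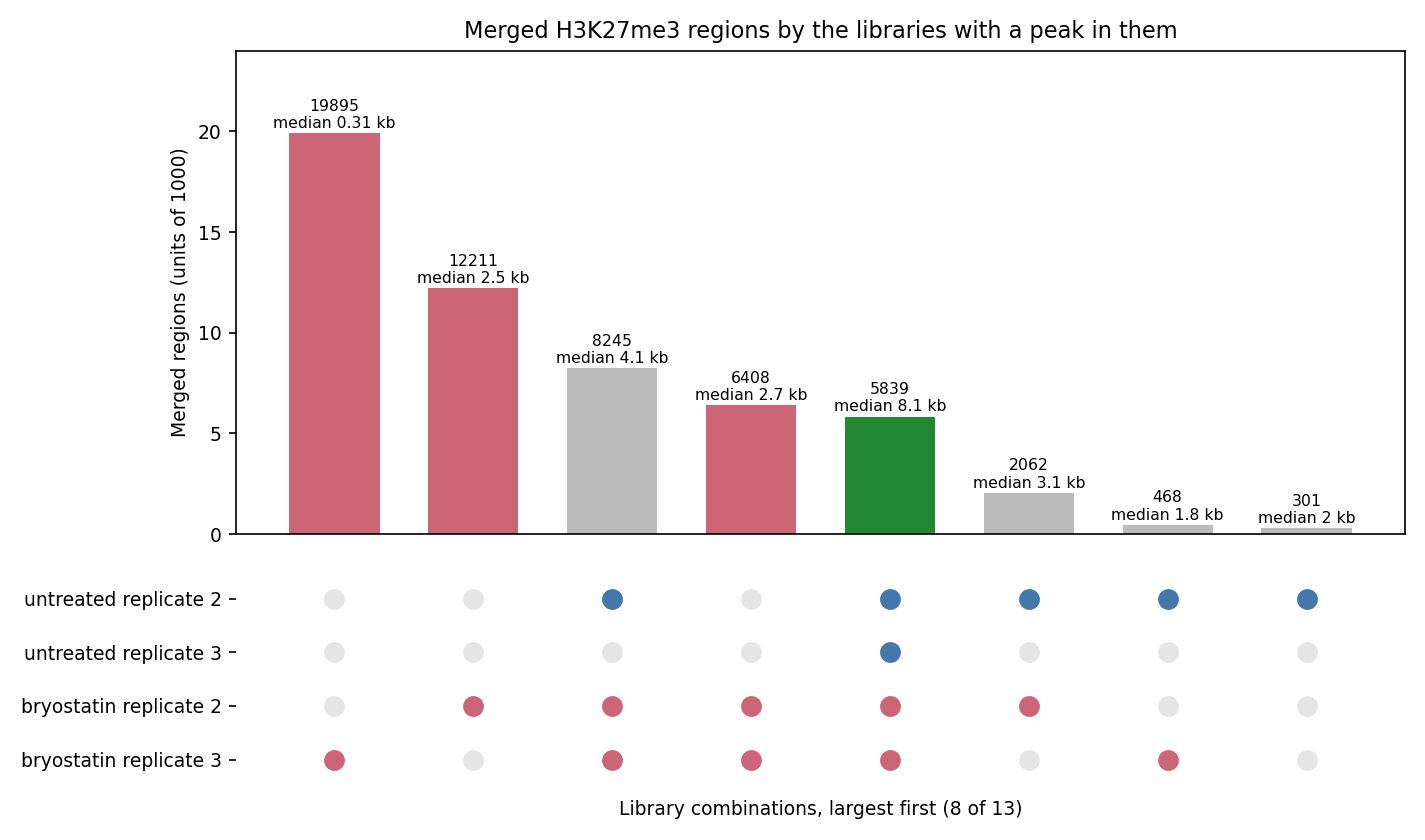
Number of merged H3K27me3 regions (bars, in units of 1000) for the 8 most frequent of 13 combinations of libraries with a peak (filled dots, blue untreated, red bryostatin), with the median region length. The 5839 regions called in all 4 (green) are the longest at a median of 8.1 kb, and bars in red hold only bryostatin peaks.

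The excess of gained over lost regions depended on how many peaks each library listed. With the upper 0.5 of each library's peaks there were 3281 gained and 0 lost regions. With the 7209 highest peaks of each library there were 34 gained and 375 lost regions. Bryostatin replicate 3 then covered 10.7 Mb, against 35.5 to 73.7 Mb in the other libraries. With peaks of at least 127929 in total signal, an alternative chosen after seeing the data, there were 11 gained and 114 lost. Without bryostatin replicate 3 the counts were 18619 gained and 7 lost, and without bryostatin replicate 2 they were 33698 and 48. Without untreated replicate 2, 14675 regions were gained.

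Replicate 1 of each group listed few peaks, 1444 untreated and 590 with bryostatin. Of these, 94.1% and 81.7% fell in the regions called in all 4 of the other libraries, and 0.485% and 1.02% in gained regions.

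The gained regions of highest signal at a protein-coding start lay at MINDY4B, GPA33, IGSF3, SLC44A3 and GPR55. At MINDY4B (chr3:150890541-150903630), of a deubiquitinase family, bryostatin replicate 2 had 13090 called bp at a mean of 25.8 RPKM and bryostatin replicate 3 had 720 bp at 83.2 RPKM. GPA33 (chr1:167074861-167086820), an intestinal surface glycoprotein gene, had 11960 and 1600 called bp at 26.5 and 44.2 RPKM. GPR55 (chr2:230955241-230962240), a G protein-coupled receptor gene, had 7000 and 1490 called bp at 38.0 and 59.7 RPKM. In each of these the wide and low peak of bryostatin replicate 2 enclosed short pieces of bryostatin replicate 3. IGSF3 (chr1:116645441-116654980) had 9540 and 1160 called bp, and SLC44A3 (chr1:94821251-94829160), a choline transporter-like gene, had 7910 and 1080. The 5 totals in bryostatin replicate 2 ran from 266 to 338 RPKM × kb (RPKM summed over bases and divided by 1000), above the smallest total that either untreated library lists. Those in bryostatin replicate 3, from 59.9 to 88.9, were above the smallest of untreated replicate 2 and below that of untreated replicate 3.

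The 5839 regions called in all 4 libraries held 78.4% and 99.8% of the signal of the untreated libraries and 58.6% and 72.4% of that of the bryostatin libraries. Across these regions the total signal of any pair of libraries had a Spearman rho between 0.825 and 0.936, given as a description since regions are not replicates and the pairs share the peak caller. A region had a median of 5.66 and 4.10 called kb untreated and 7.91 and 2.58 called kb with bryostatin. The peaks were lowest in bryostatin replicate 2, with a median of 55.9 RPKM against 71.3 and 76.5 untreated, and highest in bryostatin replicate 3, with 91.7 RPKM. Width and height thus differed more between the bryostatin libraries than between groups. In bryostatin replicate 3 a region was split into 5.94 pieces on average, against 1.03 to 1.54 in the other libraries.

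No region passed the test. The value of a region was its summed total signal in log2, from which the library's median was subtracted, and groups were compared with limma (eBayes with trend), and 0 of 5839 regions (0%) had an adjusted p under 0.05, the smallest being 0.473. At an unadjusted p under 0.05 there were 170 regions (2.91%), 112 higher (1.92%) and 58 lower (0.993%) with bryostatin. That split turned with the scaling and the measure, to 6 higher and 66 lower without centring, 62 and 76 with maximum signal and 67 and 112 without the eBayes trend. The groups did not overlap in 496 regions (8.49%) with bryostatin higher and in 1151 (19.7%) with bryostatin lower. Without centring, these counts were 147 higher and 1448 lower of the 5839 regions. The median log2 difference over all regions was −0.13 after centring. It was −0.26 without untreated replicate 2, −0.03 without bryostatin replicate 2, 0.05 with equal numbers of peaks and 0.10 with a common minimum signal. On simulated data with the spread of these libraries, the test recovered 0% of differences of 0.5 on the log2 scale, 2% of 1, 30% of 2 and 50% of 3, so a change of 1 was hardly detectable with these libraries. Leaving out 1 library moved the count. It was 12 without bryostatin replicate 3, 51 without bryostatin replicate 2, 2 without untreated replicate 2 and 0 without untreated replicate 3, in fits where the lone library is assumed to vary like the pair.

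The regions of largest log2 difference among those with an unadjusted p under 0.05 and groups apart lay mostly away from protein-coding starts. The total signals that follow are in RPKM × kb, for untreated replicates 2 and 3 and then bryostatin replicates 2 and 3. The region at chr2:164012341-164019290, inside a long non-coding RNA gene, had 130 and 178 untreated and 438 and 448 with bryostatin (log2 difference 1.64, SE 0.41, limma adjusted p = 0.498). The region at chr6:157353611-157370810, near ZDHHC14, had 544 and 144 untreated and 1078 and 562 with bryostatin (1.57, SE 0.38, limma adjusted p = 0.473). Both bryostatin totals were above both untreated totals in each. With the mean signal per called base in place of the total, the log2 differences of these regions were −0.58 and −0.0044. The region at chr9:129220811-129232360 had 138 and 152 against 369 and 346 (log2 difference 1.39, and 0.41 with the mean signal per called base). The long region at chr2:226633261-226671710 had 1248 and 467 against 2914 and 1200, where the groups separated only after centring (log2 difference 1.39, and 0.45 with the mean signal per called base). In the first of these the called width was 510 and 960 bp untreated and 6950 and 1420 bp with bryostatin. With maximum signal the log2 differences of these regions were 0.62, 0.59, 0.87 and 1.78, in the order given.

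Those of lowest log2 difference were weak regions of which bryostatin replicate 3 listed little. RASGEF1A (chr10:43224931-43229950), a Ras exchange factor gene, had 200 and 206 RPKM × kb untreated and 146 and 18.4 with bryostatin (log2 difference −1.88, SE 0.75, limma adjusted p = 0.998). A region in an intron of LTBP2 (chr14:74592011-74596000), which encodes a TGF-beta binding matrix protein, had 194 and 181 against 168 and 15.2 (log2 difference −1.80). The regions at chr17:16859991-16866740 and chr16:89060661-89065610 had log2 differences of −1.88 and −1.86. In RASGEF1A, LTBP2 and the chr17 region, bryostatin replicate 3 listed 290 to 400 called bp against 3700 to 6570 in the other 3 libraries, and it had the lowest total of the 4 in each. GAL3ST4 (chr7:100166031-100169140), a galactose sulfotransferase gene, had 141 and 164 untreated against 63.3 and 23.6 (log2 difference −1.88, SE 0.90, limma adjusted p = 0.998). The chr16 region had 162 and 163 against 74.1 and 23.6, so both bryostatin totals were low in these. With the mean signal per called base the log2 differences of GAL3ST4 and RASGEF1A turned to 0.18 and 0.21, and those of the other 3 regions were −0.09 to −0.03. With maximum signal that of GAL3ST4 was 0.02. Those of RASGEF1A, LTBP2, the chr17 region and the chr16 region stayed lower with maximum signal, at −0.47, −0.74, −0.78 and −0.83.

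**Figure D2:**
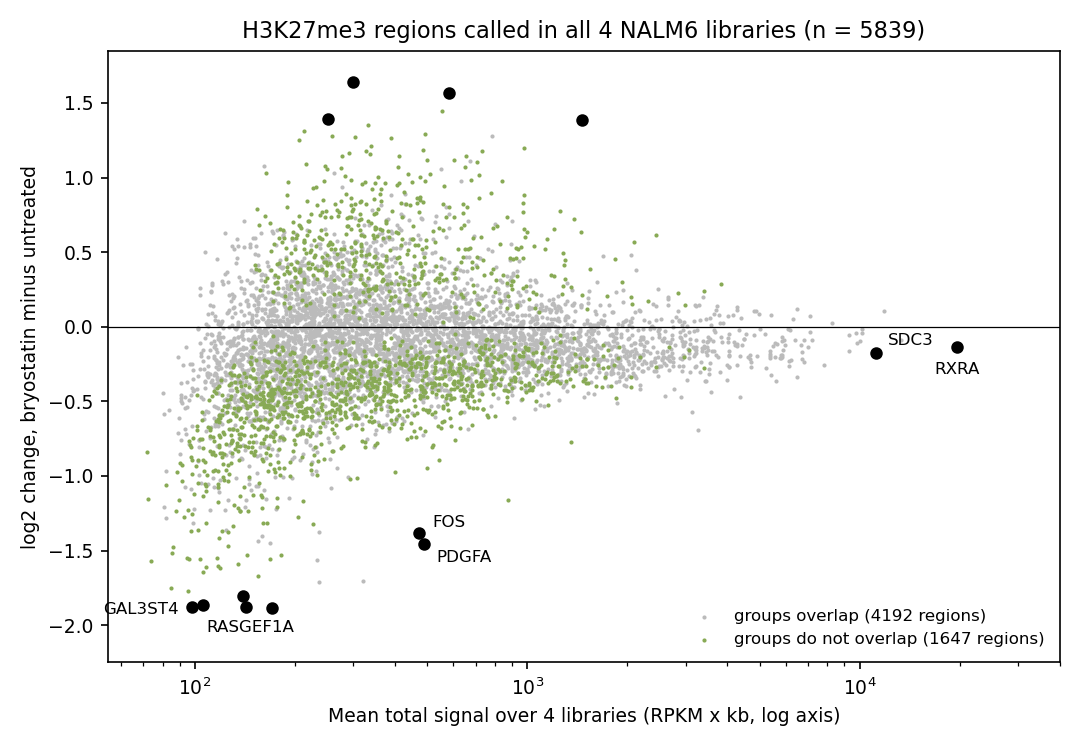
Log2 difference of the centred total signal (bryostatin minus untreated) against the mean total signal (RPKM × kb, log axis) for the 5839 regions called in all 4 libraries, 1 point each, green where the groups do not overlap. Black points are the regions described in the text, with RXRA and SDC3 of high signal near 0 and FOS and PDGFA at −1.39 and −1.45.

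The total H3K27me3 signal at FOS and PDGFA was lower in both bryostatin libraries than in both untreated ones. The 2 genes were named after their values were seen, and neither passed the test. At FOS (chr14:75274541-75281850), which encodes an AP-1 subunit, the total signal was 696 and 700 RPKM × kb untreated and 247 and 254 with bryostatin (log2 difference −1.39, SE 0.35, limma unadjusted p = 0.00048, adjusted p = 0.498). At PDGFA (chr7:514111-522500), a growth factor gene, it was 699 and 758 untreated and 262 and 237 with bryostatin (log2 difference −1.45, SE 0.35, limma unadjusted p = 0.00023, adjusted p = 0.473). In these totals both bryostatin libraries were under both untreated libraries, and members of a group were close to each other. As multiples of each library's median, FOS had 1.72 and 2.32 untreated and 0.556 and 1.06 with bryostatin. PDGFA had 1.73 and 2.51 untreated and 0.590 and 0.983 with bryostatin. After centring the groups were thus still apart, but members of a group were less close. The mean over called bases at FOS was 106 and 122 RPKM untreated against 38.7 and 79.6, and at PDGFA 91.7 and 90.3 against 47.1 and 87.6. The called width at PDGFA was 7620 and 8390 called bp untreated and 5570 and 2700 bp with bryostatin. At FOS it was 6580 and 5740 bp untreated and 6390 and 3190 bp with bryostatin, where the groups overlapped. The maximum signal at FOS was 350 and 428 RPKM untreated and 140 and 423 RPKM with bryostatin, which overlapped too. At PDGFA it was 565 and 443 RPKM untreated and 150 and 277 RPKM with bryostatin, with the groups apart. Without bryostatin replicate 3 both regions had a limma adjusted p of 0.00495. Over all alternatives the adjusted p ran from 0.00495 to 0.9999 for both, and the log2 difference from −1.85 to −0.69 for FOS and from −1.82 to −0.46 for PDGFA.

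At these starts the bryostatin peaks covered less of the promoter than the untreated ones or none of it. The PDGFA promoter printed above lay wholly inside untreated peaks (300 of 300 bases in both) and outside bryostatin peaks (0 bases in both). The SPHK1 promoter, of the kinase that makes sphingosine 1-phosphate, had the same 300, 300, 0 and 0 bases. The FOS promoter had 300 and 300 bases untreated against 207 and 120. At SPHK1 the whole region (chr17:76380711-76385650), which also holds a start of PRPSAP1, had 4940 and 3660 called bp untreated, 0 in bryostatin replicate 2 and 940 in bryostatin replicate 3. Its untreated peaks were weak, with means of 32.4 and 35.9 RPKM and total signals of 160161 and 131425. The second total was close to 127929, the smallest that untreated replicate 3 lists. DLX1 had 300, 300, 300 and 274 bases, and SIM1 had 0, 0, 300 and 31.

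The same promoters carried the active marks. H3K4me2 peaks covered all 300 bases of the FOS, PDGFA and SPHK1 promoters in the 4 H3K4me2 libraries of NALM6. The highest H3K4me2 signal of those peaks was 2535 and 2814 RPKM untreated and 2442 and 2336 with bryostatin at FOS. At PDGFA it was 1233 and 1456 against 1280 and 1366, and at SPHK1 1354 and 1516 against 1431 and 1319. The groups overlapped in H3K4me2 at each of PDGFA and SPHK1, and at FOS both bryostatin values were below both untreated ones. H3K4me3 covered the 3 promoters in both untreated libraries and in bryostatin replicate 2. In H3K4me3 bryostatin replicate 3 it covered 244 bases of PDGFA and 0 of FOS and SPHK1. That library overlapped 55 of the 5839 regions called in all 4, against 316 to 424 in the other H3K4me3 libraries. A missing peak there was not read as loss of H3K4me3. The highest H3K4me3 signal at PDGFA was 1025 and 1020 RPKM untreated and 1465 and 1498 with bryostatin, with both bryostatin values above both untreated ones. At FOS it was 371 and 436 RPKM untreated and 549 in bryostatin replicate 2, and at SPHK1 501 and 492 against 498, with no peak in bryostatin replicate 3 at either.

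Over all RefSeq promoters the class lost from bryostatin was small. Of 21548 promoter windows of 15315 genes, 1160 (5.38%) had an H3K27me3 peak in all 4 libraries, 129 (0.599%) were gained and 11 (0.051%) were lost. The 11 belonged to 9 genes, which were PDGFA and SPHK1 (2 windows each), PLCH2, KCNK3, GAL3ST4, PTGS1, GLB1L3, BEAN1 and DMPK, named after their values were seen. Except at SPHK1, these windows lay in, or at PTGS1 across the edge of, regions called in all 4 libraries. The region at KCNK3 had a log2 difference of −0.17, and that at BEAN1 had 551 and 286 untreated against 648 and 341 RPKM × kb with bryostatin (0.34, higher with groups apart after centring, limma adjusted p = 0.998). Without bryostatin replicate 3, 16 windows were lost and 557 gained, and without bryostatin replicate 2 these were 140 and 1225. Without untreated replicate 2 they were 23 and 496, and without untreated replicate 3 they were 69 and 138. With 7209 peaks from each library 83 were lost and 2 gained. At GAL3ST4 H3K4me2 peaks covered 0 and 0 bases of the window untreated and 300 and 300 with bryostatin. By gene starts, with the wider 1 kb window, 1869 of 19970 genes (9.36%) were called in all 4, 451 (2.26%) were gained and 4 (0.02%) were lost. Those 4 were BARX1, LDHD, PRPSAP1 and TMEM190, and beside the starts of BARX1, LDHD and TMEM190 the region was called in all 4. BARX1 had 507, 362, 499 and 332 RPKM × kb, LDHD had 329, 337, 201 and 181, and the region shared by IL11 and TMEM190 had 2236, 2170, 1970 and 1377.

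The longest and strongest regions were called in every library with log2 differences near 0. The region over RXRA (chr9:134312761-134418140), the retinoid X receptor alpha gene, was the longest at 105380 bp and had 20941 and 21319 RPKM × kb untreated and 17940 and 18191 with bryostatin (log2 difference −0.13, SE 0.91). The HOXC cluster (chr12:53940271-54032890) had 10486 and 8636 against 11585 and 6357 (−0.06, SE 0.63). SDC3 (chr1:30834381-30916570), a syndecan gene, had 11685 and 12797 against 10505 and 9759 (−0.18). The RXRA and SDC3 totals were all lower with bryostatin, as in 1448 of all 5839 regions before centring. After centring the groups overlapped in these 3 regions. PLEKHA6, GRHL3, 2 regions of GSE1 and a region of chr3 (chr3:127056861-127110490) had log2 differences from −0.09 to 0.11. Per base their signal was above that of the median region, for example with 172 to 210 RPKM at RXRA and 118 to 127 RPKM over the HOXC cluster.

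Gene lists were then read by role, as the number of genes with a peak within 1 kb of a start in untreated replicates 2 and 3 and bryostatin replicates 2 and 3. For all protein-coding genes the shares were 15.2% and 9.77% untreated and 19.5% and 24.3% with bryostatin, 9.36% in all 4 libraries and 2.26% gained. No region at a listed gene passed the limma test. The median log2 difference of a list's regions is set beside −0.13 for all regions, as a description. The number of gained genes in a list depended on the libraries, being the same without untreated replicate 3 and often larger without 1 of the other 3.

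HOX genes had the highest share called in all 4 libraries among the lists. Of 39 HOX genes, which specify position along the body axis, 19, 15, 24 and 21 were called, 15 (38.5%) in all 4 libraries, and HOXD3 and HOXD4 were gained. Their 8 tested regions had a median log2 difference of 0.01, none with groups apart. Of 126 developmental transcription factors, 39, 27, 51 and 49 were called and 26 (20.6%) in all 4. The region of DLX1 and DLX2 had 6334 and 6385 RPKM × kb untreated and 5875 and 4508 with bryostatin (log2 difference −0.21), and that of LHX2, a forebrain and limb homeobox gene, had 6213 and 5875 against 6333 and 3826 (−0.20). EMX1 and TLX1 had −0.02 and −0.14. Gained were 6 of the factors, among them PAX3, PAX6, POU3F2, SIM1 and TBX18, and 1 (BARX1) was lost. With untreated replicate 2, bryostatin replicate 2 and bryostatin replicate 3 left out in turn, 15, 14 and 13 factors were gained, and 5, 3 and 5 HOX genes. At SIM1 the gained region had 56.6 and 47.2 RPKM × kb in the bryostatin libraries, and at PAX3 107 and 99.0. These totals were all below the smallest that untreated replicate 3 lists, and the 47.2 was also below that of untreated replicate 2.

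Of 64 morphogens and receptors, 28, 18, 32 and 32 were called and 17 (26.6%) in all 4. WNT7B, a secreted WNT ligand, had 6140 and 6204 against 4553 and 4718 RPKM × kb (log2 difference −0.32), both bryostatin values below both untreated ones before centring but not after. Before centring this was so in 1448 of all 5839 regions. FGF19, an endocrine fibroblast growth factor, had 4473 and 3868 against 4476 and 3771 (0.08), and WNT10A and DHH had −0.13 and −0.27. SFRP4, GDF10 and FGFR3 were gained, which became 11, 7 and 4 genes with untreated replicate 2, bryostatin replicate 2 and bryostatin replicate 3 left out in turn. Of 51 potassium and calcium channel genes, 23, 16, 24 and 23 were called and 14 (27.5%) in all 4, with CACNA1C, KCNQ1 and KCNH3 from −0.28 to −0.08 and CACNG2 gained, or 7, 3 and 1 genes without those libraries. Of 53 clustered protocadherins, adhesion genes of neurons, 0 were called in any library.

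Of 30 B lineage genes, 28 had H3K4me3 in both untreated libraries and 2 (6.67%) had H3K27me3 in each of the 4 libraries, beside 9.36% of all genes. These were POU2F2, an octamer-binding factor, with 2439 and 2191 against 2256 and 1626 RPKM × kb (log2 difference −0.18), and its coactivator POU2AF1 with 957 and 830 against 1152 and 618 (0.01). The groups overlapped after centring in both. CD22 had no H3K27me3 peak at a start in any of the 4 libraries and H3K4me3 in both untreated libraries. H3K4me2 peaks covered the whole CD22 promoter printed above in all 4 H3K4me2 libraries, with a highest signal of 1033 and 1055 RPKM untreated and 1110 and 1208 with bryostatin. The highest H3K4me3 signal there was 687 and 754 RPKM untreated and 1103 in bryostatin replicate 2. Bryostatin replicate 3, the H3K4me3 library with the fewest overlaps given above, had no peak there.

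Genes of later B cells had more calls in the bryostatin libraries, as all genes did. Of 27 mature B cell and plasma cell genes, 4 and 2 were called untreated and 8 and 8 with bryostatin, with MS4A1 (CD20), CD80 and CXCR5 gained (5 genes without untreated replicate 2 and 4 without either bryostatin library). SDC1 (CD138), the plasma cell antigen, had 2572 and 2224 against 2260 and 1681 (log2 difference −0.20), and FCER2 (CD23) had 387 and 457 against 347 and 218 (−0.52, limma adjusted p = 0.998), with both bryostatin values lower. At CD80 the gained region had 135 and 19.7 RPKM × kb, and at MS4A1 bryostatin replicate 2 had 124. The difference in this list was not tested against that for all genes.

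Of 32 T and NK cell genes, 10, 6, 14 and 15 were called and 6 (18.8%) in all 4, among them BCL11B, TCF7 and CD7. GATA3, the T helper factor, had 3624 and 3257 against 3583 and 2345 RPKM × kb (log2 difference −0.15) and H3K4me3 in both untreated libraries, and BCL11B had 0.00. CTLA4, UBASH3A and GNLY were gained, and 6, 6 and 4 genes with untreated replicate 2, bryostatin replicate 2 and bryostatin replicate 3 left out in turn. Of 30 myeloid genes, 7, 2, 11 and 8 were called. CSF3R and CSF1R, the G-CSF and M-CSF receptors, were called in all 4 at −0.16 and −0.44, and CEBPE and IRF8 were gained, and 6, 2 and 5 genes without those libraries. Of 76 cytosolic ribosomal protein genes, all with H3K4me3 in both untreated libraries, 0, 0, 0 and 3 were called.

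Among genes that respond to protein kinase C signalling, no tested region passed the test. After centring, 4 of the 12 tested regions were lower in both bryostatin libraries, beside 19.7% of all regions. That difference was not tested. Of 54 genes, 15, 11, 15 and 18 were called, 11 (20.4%) in all 4, and 36 had H3K4me3 in both untreated libraries. Their 12 tested regions had a median log2 difference of −0.29, from −1.39 to 0.17, and the median ran from −0.56 to −0.12 with 1 library left out. Gained were 0 of the 54 beside 2.26% of all genes, and 5 without bryostatin replicate 2 and 2 without bryostatin replicate 3. After centring, the bryostatin values were above the untreated values in 0 of the 12 regions and below in 4, beside 8.49% and 19.7% of all regions. By the same count 3 of 5 regions of Polycomb genes, 3 of 8 of protein kinase C isoforms and 0 of 8 of HOX genes were below. None of the regions in these 3 lists was above. At an unadjusted limma p under 0.05, 2 of the 12 regions were lower, FOS and FOSB, beside 0.993% of all regions.

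FOSB and NR4A3 were named after their values were seen. FOSB, a partner of JUN in AP-1, had 608 and 525 RPKM × kb untreated and 465 and 228 with bryostatin (log2 difference −0.70, SE 0.33, limma adjusted p = 0.998). NR4A3, an immediate early nuclear receptor, had 491 and 422 against 374 and 244 (−0.50). In both, the 2 bryostatin libraries were below the 2 untreated ones. JUN had 523 and 591 against 764 and 451 (0.17), where the groups overlapped. Of the regions of higher signal, ITGB2, the beta chain of the leukocyte integrins, had 1970 and 2487 against 1715 and 1993 (−0.17), LIF had 2096 and 1950 against 1899 and 1269 (−0.29), and ITGB2-AS1 had 1901 and 1856 against 1340 and 1238 (−0.45). For LIF and ITGB2-AS1 both bryostatin totals were lower before centring, as in 1448 of all 5839 regions.

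Of 29 genes of protein kinase C isoforms and diacylglycerol signalling, 10, 8, 12 and 14 were called and 8 (27.6%) in all 4. PRKCD, the delta isoform, had 1755 and 1653 against 1553 and 1009 RPKM × kb (log2 difference −0.35, limma adjusted p = 0.998), with both bryostatin values lower. It also had H3K4me3 at a start in both untreated libraries. PRKCZ and DGKG had −0.11 and −0.09, and UNC13A (named after its values were seen), a presynaptic protein with a diacylglycerol-binding domain, had 423 and 388 against 288 and 173 (−0.77, SE 0.36, limma adjusted p = 0.998). PRKCA, the alpha isoform, was gained, with 75.7 and 45.5 in the bryostatin libraries and H3K4me3 in both untreated ones. Gained genes numbered 3, 4 and 2 with untreated replicate 2, bryostatin replicate 2 and bryostatin replicate 3 left out in turn.

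Of 37 genes for NK and T cell ligands and adhesion molecules, 9, 5, 10 and 8 were called, 5 (13.5%) in all 4 and 0 gained. ULBP2, an NKG2D ligand, had 987 and 805 against 900 and 577 RPKM × kb (log2 difference −0.21), RAET1L of the same family had −0.06, NECTIN1 had 0.04, and NECTIN2, a DNAM-1 ligand, had 642 and 716 against 474 and 429 (−0.50). For NECTIN2 both bryostatin totals were lower, as in 1448 of all 5839 regions before centring, and the centred values overlapped. ICAM1, an adhesion molecule, and HLA-E, an NK cell inhibitory ligand, had no H3K27me3 peak at a start in any of the 4 libraries and H3K4me3 in both untreated ones. HLA-G had a peak of none of the 3 marks at a start in these libraries.

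The genes of the Polycomb machinery were themselves partly marked. Of 36 genes, 8, 5, 10 and 14 were called and 5 (13.9%) in all 4, all of which also had H3K4me3 in both untreated libraries. CBX8, a chromodomain subunit, had 5045 and 5487 against 4315 and 4061 RPKM × kb (log2 difference −0.24), and CBX6 had 0.27. EPOP, an accessory subunit, and PCGF2 had −0.32 and −0.56. PHC2 and the demethylase gene KDM6B were gained, and 4, 6 and 3 genes with untreated replicate 2, bryostatin replicate 2 and bryostatin replicate 3 left out in turn. The 5 regions had a median of −0.32, with a limma adjusted p of 0.998 for each, and that median was −0.51 without untreated replicate 2, −0.13 without untreated replicate 3 and −0.04 with maximum signal. Of 17 CDK inhibitors and tumour suppressors, 3, 2, 3 and 5 were called, with CDKN1C at −0.23 and CDH1 at −0.25.

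Regions called in all 4 libraries and gained regions differed in the active marks and in sequence, which the peak calls did not use. H3K4me2 peaks overlapped 14.3% ± 1.78 of the regions called in all 4 and 0.780% ± 0.101 of the gained regions (mean and SD over 4 H3K4me2 libraries). The lowest of the former, 11.7%, was above the highest of the latter, 0.874%. For H3K4me3 the shares were 5.01% ± 2.82 and 0.410% ± 0.143, with the lowest at 0.942% for regions called in all 4, in bryostatin replicate 3. With equal numbers of peaks, where only 34 regions are gained, the H3K4me3 shares were 6.40% ± 3.47 and 3.68% ± 2.82, less apart than the spread, and the H3K4me2 shares 20.0% ± 2.50 and 5.15% ± 1.47. The regions called in all 4 were longer, and a longer region is more often overlapped. At gene starts, H3K4me3 was found in both untreated libraries at 417 of 1869 genes (22.3%) called in all 4 and 93 of 451 gained genes (20.6%), against 8343 of 14347 genes (58.2%) without an H3K27me3 peak.

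The gained regions held fewer CpG per kb than the regions called in all 4. The median was 17.7 CpG per kb in regions called in all 4, 9.19 in gained regions and 7.64 in those called in bryostatin replicate 2 alone. It was 10.8 in the 10824 regions called in both groups but not in all 4 libraries. A low CpG content was thus not particular to gained regions. Over all bases of a class, the gained regions had 10.9 CpG per kb and the regions called in all 4 had 19.7, beside 10.02 for chromosomes 1 to 22 and X. In those of 2 to 4 kb the medians were 21.0 (597 regions called in all 4) and 9.48 (3604 gained regions). The 4739 regions of that length called in both groups but not in all 4 had 11.2. Regions called in bryostatin replicate 3 alone had 14.6 CpG per kb. The nearest region called in all 4 was a median of 115 kb from a gained region, with 16.2% of gained regions within 10 kb, against 14.5 kb and 43.4% between regions called in all 4. For regions called in both groups but not in all 4 these values lay between, at 58.5 kb and 23.3%.

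Promoter windows called in all 4 also held more CG dinucleotides than gained ones. The median CG count in 300 bases was 22 in those called in all 4, 11 in gained ones, 32 in the 11 lost ones and 21 in all promoters. The windows printed above held 23 (DLX1), 25 (SIM1), 30 (FOS), 27 (PDGFA), 38 (SPHK1) and 9 (CD22) CG dinucleotides, so that 87.2% of promoters had fewer than SPHK1 and 27.7% had fewer than CD22. The printed DLX1 and SIM1 windows thus did not show the difference between their classes. Windows called in bryostatin replicate 2 alone had a median of 4 and an H3K4me3 peak in both untreated libraries for 4.67%, while those called in bryostatin replicate 3 alone had 27 and 75.7%. The 2 bryostatin libraries thus added promoters of unlike kinds. The AP-1 motif TGANTCA, which reads the same on both strands, was in 6.17% of all promoters, 6.21% of those called in all 4 and 6.20% of gained ones. It was in 12.1% of the windows called in bryostatin replicate 2 alone and in 3.83% of those called in bryostatin replicate 3 alone, and of the printed windows in DLX1 and SPHK1. The motif TGACGTCA, also its own complement, was in 2.29% of all promoters and in none of the 6 printed.

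REH, another precursor B cell leukaemia line of the series, had 3 untreated and 3 bryostatin H3K27me3 libraries. Its 6 libraries overlapped 33.7% to 46.7% of the NALM6 regions called in all 4 and 13.8% to 28.2% of the gained regions. Of 1685 regions called in all 10 libraries of both lines, 0 changed in REH alone by limma at an adjusted p under 0.05, with 113 at an unadjusted p under 0.05. In the test of the difference in response, 1 region (0.0593%), named after its value was seen, passed at chr15:69722941-69765670, over the long non-coding RNA gene DRAIC. As multiples of each library's median its signal was 0.409 and 0.318 in untreated NALM6 and 1.50 and 1.50 in bryostatin-treated NALM6. In REH it was 3.53, 3.62 and 3.78 untreated and 3.85, 3.70 and 3.67 with bryostatin. The bryostatin libraries of NALM6 were thus higher, and those of REH overlapped, with a log2 difference of 2.06 in NALM6 and 0.04 in REH (REH minus NALM6 −2.02, SE 0.24, limma adjusted p = 0.00414). No region passed with maximum signal or without centring, and the count was 4 without untreated replicate 2 and 14 without bryostatin replicate 2 of NALM6. Peaks that were separate in NALM6 count together there, so that stretch joined 1 region called in all 4 libraries, 2 gained ones and 2 called in bryostatin replicate 3 alone. The region called in all 4 (chr15:69722951-69728590) had 269 and 154 untreated and 413 and 304 RPKM × kb with bryostatin (log2 difference 0.89, SE 0.38, limma adjusted p = 0.998). The PDGFA and SPHK1 promoters printed above lay wholly inside H3K27me3 peaks in all 6 REH libraries, and the FOS promoter in 1 of 6.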

How the data were processed

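CUT&Tag libraries were made and processed by the authors. Per the submitters' processing notes and the study's methods, reads were converted with bcl2fastq, trimmed with Trim Galore and aligned to hg38 with Bowtie2, the coverage was normalized by RPKM, and SEACR called peaks in stringent mode in each library without pooling. The deposited signal of a peak is the sum of that coverage over its bases (total signal) and its maximum, on 10 bp bins. The comparisons that the authors made between groups were not used. Versions of these tools are not given in the sources used here. Because SEACR's threshold is set in each library, the number and width of peaks depend on depth and on the shape of the background, and signal under the threshold is not listed.

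Peaks of chromosomes 1 to 22 and X sharing 1 bp or more were merged into regions. The signal of all peaks in a region was summed for each library, put on the log2 scale and centred by subtracting that library's median over the regions with a peak in all 4. All 4 libraries entered 1 fit of limma 3.58.1 in R 4.3.3, with an eBayes trend and a threshold of 0.05 on p adjusted by Benjamini-Hochberg. For single values the test was an exact permutation, two-sided, for which 0.333 is the smallest p possible. The response of REH was compared with that of NALM6 by an interaction term over 10 libraries. Mapped reads were read from the RPKM step, every maximum of these 4 libraries being within 0.05 of a whole number of steps. Depth thus ran from 6.86 to 28.6 M reads, and the lowest summit was 3 reads in bryostatin replicate 3 and 7 to 13 in the others. Replicate 1 had another scaling and was used only where stated. Starts came from GENCODE 44, a start being called when a peak lay within 1 kb, and promoter windows and their names from RefSeq (GRCh38.p14), which held 15315 of 19962 genes looked up. Peaks, genome and annotation share the hg38 build. Tables and figures were made with Python 3.11.15, pandas 2.3.3, numpy 2.4.6 and matplotlib 3.10.9. On simulated data with known differences in 50 regions of each size, the limma step made 41 calls, of which 0 were false.

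The libraries compared, the gene lists and the tests were chosen with earlier results of these data known. The regions named were the 5 of largest log2 difference in each direction with an unadjusted p under 0.05 and groups apart, since none passed the adjusted test, the 5 gained regions of highest signal at a start, the 5 longest and 5 strongest regions, up to 4 genes of highest signal and the gained or lost genes of each list, and CD22, ICAM1, HLA-G and HLA-E. Others are said to have been named after their values were seen, and results on chromosome 8 and for some other genes that the rule names are not reported here. The alternatives were the maximum signal, the mean signal, quantile normalization or no centring at all, regions with a peak in 1 or more libraries of each group, the upper 0.5 of regions or peaks, equal numbers of peaks (7209), merging within 1000 bp, windows of 5000 bp, no eBayes trend, the replicate number as a block, a 2 kb window at starts, replicate 1 added and each library left out. A common minimum total signal, and the alternatives for promoter windows, were chosen after seeing the data.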

Additional observations from a re-analysis of the deposited data

Results flagged for a closer look

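The response to bryostatin differed between the lines in 1 of 1685 regions called in all 10 NALM6 and REH libraries, at chr15:69722941-69765670 over DRAIC, by the test of the difference itself (REH minus NALM6 −2.02 on the log2 scale, SE 0.24, limma adjusted p = 0.00414). The signal was higher in 2 of 2 bryostatin libraries of NALM6, and the REH groups overlapped. With maximum signal or without centring no region passed, while 4 regions passed without untreated replicate 2, 14 without bryostatin replicate 2 and 1 without either of the other NALM6 libraries. Within it the untreated NALM6 libraries had peaks in 1 of 5 separate NALM6 regions, bryostatin replicate 2 in 3 and bryostatin replicate 3 in 5. The NALM6 region called in all 4 had a log2 difference of 0.89 (SE 0.38, limma adjusted p = 0.998) beside 2.06 for the whole stretch, and the part of peak calling in this result was not tested.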

How the results depend on the processing

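The count of 0 changed regions held under every other measure, centring, filter and region rule tried, with the smallest adjusted p from 0.144 to 0.9999, and became 22 (19 higher, 3 lower) with the replicate number as a block. With that block the limma adjusted p was 0.00212 for the region at chr2:226633261-226671710, 0.0123 for that at chr2:164012341-164019290, both higher, and 0.00934 for the region near ZDHHC14 (higher) and for FOS and PDGFA (lower). Same-numbered libraries had a correlation of deviations from their group mean of 0.299. With 2 libraries a group the value for unlike-numbered ones is fixed at −0.299 and adds nothing. The 2 pairs are too few to treat the numbers as a pairing. Leaving out each library gave 0 to 51 changed regions. The difference between lines, 1 region, was 0 with maximum signal and 0 without centring, 1 with the block and 1 to 14 with each library left out.

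Gained regions numbered 3281 with the upper 0.5 of peaks, 34 with equal numbers of peaks, 11 with a common minimum signal, 95 where peaks had to cover 0.5 of a region, 6 with replicate 1 added and 6427 to 33698 with each library left out. Lost regions numbered 375, 114 and 9 for equal numbers, common minimum and 0.5 covered, and 0 to 302 with each library left out. Promoter windows gained were 2 with equal numbers and 138 to 1225 with each library left out, and those lost were 83 and 16 to 140.

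Bryostatin minus untreated, the mean signal was −44.2 to 10.97 RPKM and the covered length −13.9 to 104 Mb with each library left out. With equal numbers and with a common minimum, the mean signal differed by 22.8 and 29.6 RPKM and the share of gene starts by −1.22 and −0.989 percentage points. H3K4me2 lay at 12.5% of regions called in all 4 when 0.1 of a region had to be covered and at 20.0% with equal numbers, where the 34 gained regions had 5.15%. H3K4me3 lay there at 6.40% and 3.68%.

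Of the results on single regions and gene lists, 15 passed the threshold under an alternative, 434 stayed as they were and 14 moved by more than the spread. Of the counts and comparisons over libraries, 54 stayed, 34 moved and 6 reversed. Depth was not matched between libraries, and the lowest summit in bryostatin replicate 3 was 3 reads.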
